A study of Mus musculus with 8 samples.

Results

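In all, 40 of the 18193 genes annotated on the arrays were grouped as neuronal cytoskeleton, axon and synapse genes, chosen by symbol from a list of names. They were represented by 99 of the 45037 probe sets that are not array controls, on 8 arrays of microdissected mouse optic fissure. A probe set was tested if its mean log2 signal over the 8 arrays lay above the lowest 40% of probe sets, and 62 probe sets of 35 of the 40 genes did so. Chl1, Syt4, Myt1, Nhlh1 and Nhlh2 had no probe set above that level. Each gene is described by its tested probe set of highest mean signal, and a log2 signal belongs to that probe set, so levels are compared between arrays and not between genes.

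The optic fissure is the ventral seam of the optic cup, which closes during the days sampled. The tissue was cut out of frozen C57BL/6 embryo sections with a laser; the embryos were wild-type, and there were 3 arrays at embryonic day (E) 10.5, 3 at E11.5 and 2 at E12.5. No group carried an allele or treatment, and the groups differed by stage. Each array held RNA pooled from 3 embryos, amplified linearly in a pair of T7 transcription rounds and labelled with biotin. The arrays carry the letters A to C within a stage. The labels call them biological replicates, but place the pooled embryos both in a single litter and in separate litters, so p-values measure the spread between these pools. With 3, 3 and 2 arrays, the number of arrays limits the precision. The test used below takes the spread of a probe set to be equal at all stages. Where E12.5 varied more than the earlier stages, the standard errors and p-values understate the uncertainty at E12.5.

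Newborn neurons leave the cell cycle and then build an axon. Tubulin, doublecortin, stathmins and microtubule-associated proteins shape its microtubules, neurofilaments fill it, and growth-cone proteins, adhesion molecules and the vesicle machinery let it steer and later signal. Hu proteins bind neuronal messenger RNAs and are among the earliest markers of the neuronal state. In the mouse eye the first neurons to be born are retinal ganglion cells, whose axons leave through the optic disc next to the fissure.

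Array medians lay between 4.37 and 4.48 log2 units, and the 99th percentile between 11.2 and 12.9. The log2 difference of the 3' and 5' Gapdh control probe sets, a sign of RNA length, was 3.35 to 4.71 on the earlier arrays, 5.17 on array A of E12.5 and 4.78 on array B. For Actb it was 5.45 to 6.96 on the earlier arrays, 6.88 and 7.21 on those 2. Both controls were lowest on E11.5 A, and the part of RNA length in the stage differences was not tested. Of 10 listed genes of the ventral optic cup and fissure, 9 had a probe set and all 9 were tested. Of these 9, none was higher and 1 lower at E12.5 than at E11.5, and none higher and 2 lower than at E10.5. Over all genes, 1.79% were higher and 0.238% lower against E11.5, and 3.49% and 1.78% against E10.5. Ntn1, the guidance cue netrin-1, had 7.88 to 8.83 at E10.5, 6.63 to 6.97 at E11.5, and 4.56 and 4.10 at E12.5, and Zfp503 had 9.87 to 10.35 at E11.5 and 9.44 and 8.42 at E12.5. Vax2, a ventral retinal transcription factor, had 8.25 to 9.61 at E11.5 and 10.07 and 9.62 at E12.5.

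Between E11.5 and E12.5, all 3 Hu protein genes, 3 of 9 microtubule genes, 1 of 3 neurofilament genes and 1 of 4 tested adhesion genes rose, 1 of 6 in the last role rose, and of 5 tested vesicle genes 1 rose and 1 fell. In limma's moderated test, with Benjamini-Hochberg adjustment over 27022 probe sets and a threshold of 0.05, 10 of the 35 genes were higher at E12.5 than at E11.5 and 1 was lower. The 10 were Elavl2, Elavl3, Elavl4, Stmn4, Dcx, Map2, Nefl, Ncam1, Syt1 and Tagln3, and the 1 that fell was Cplx3. That is 28.6% higher, against a background of 1.79% higher and 0.238% lower among all 13050 genes tested. The median change of the 35 genes was 1.75 log2 units, with a range from -2.87 to 5.46, and that of all genes was 0.11. The remaining 24 did not pass, and 24 of the 35 were higher at an unadjusted p below 0.05, where 14.9% of all genes were. The filter uses all 8 arrays, and the means of Tubb3, Stmn2, Dcx, Nefm and Snap25 over the 6 earlier arrays lay below it, so these 5 were tested only through their E12.5 values and counts over the 35 include that selection. Among the other 30 genes, 9 were higher against E11.5 and 10 against E10.5. All E12.5 arrays lay above all E11.5 arrays for 22 of the 35 genes and below them for 1, with backgrounds of 31.0% and 15.1%. Of the 62 probe sets, 17 were higher and 1 lower, with backgrounds of 1.62% and 0.200%. Under quantile normalization 3 of the 35 genes passed as higher, with a median of 1.41 log2 units. Higher calls then made up 67.6% of all calls over the 27022 probe sets instead of 89.0%. In bulk tissue, fewer cells of a type and less RNA per cell cannot be told apart.

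From E10.5 to E11.5, Pcp4 was the 1 gene of 35 that passed, upward, and none passed downward, with backgrounds of 0.153% higher and 0.0230% lower. At an unadjusted p below 0.05, 1 gene was higher and 1 lower, against 3.87% and 18.3% of all genes. The median change was -0.12 log2 units in the 35 genes and -0.22 in all genes. Quantile normalization moved the median of all genes for this interval by more than 0.1, to 0.00, and that of the 35 genes to -0.07. All E11.5 arrays lay above all E10.5 arrays for 2 of the 35 genes and below them for 5, against backgrounds of 3.86% and 22.2%. Of the 62 probe sets 1 was higher and none lower, with backgrounds of 0.0962% and 0.0296%.

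Against E10.5, 13 of the 35 genes were higher at E12.5 and 1 was lower. The backgrounds were 3.49% higher and 1.78% lower, and the median change was 1.75 log2 units in the 35 genes and -0.10 in all genes. Tubb3, Stmn2, Gap43 and Pcp4 passed here and not against E11.5, and Elavl4 passed against E11.5 and not here. All E12.5 arrays lay above all E10.5 arrays for 20 of the 35 genes and below them for 4, with backgrounds of 19.9% and 27.7%. Of the 62 probe sets, 17 were higher and 1 lower, with backgrounds of 3.08% and 1.56%. Those 2 comparisons share the E12.5 arrays, and the differences between their lists were not tested. The change after E11.5 minus the change before it passed in 1 of the 35 genes, Cplx3, at -3.05 log2 units with an adjusted p of 0.045 by limma, and in no gene upward. For that difference the backgrounds were 0.215% upward and 0.0690% downward, and 20 of the 35 genes were upward at an unadjusted p below 0.05, where 16.1% of all genes were.

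**Figure D1:**
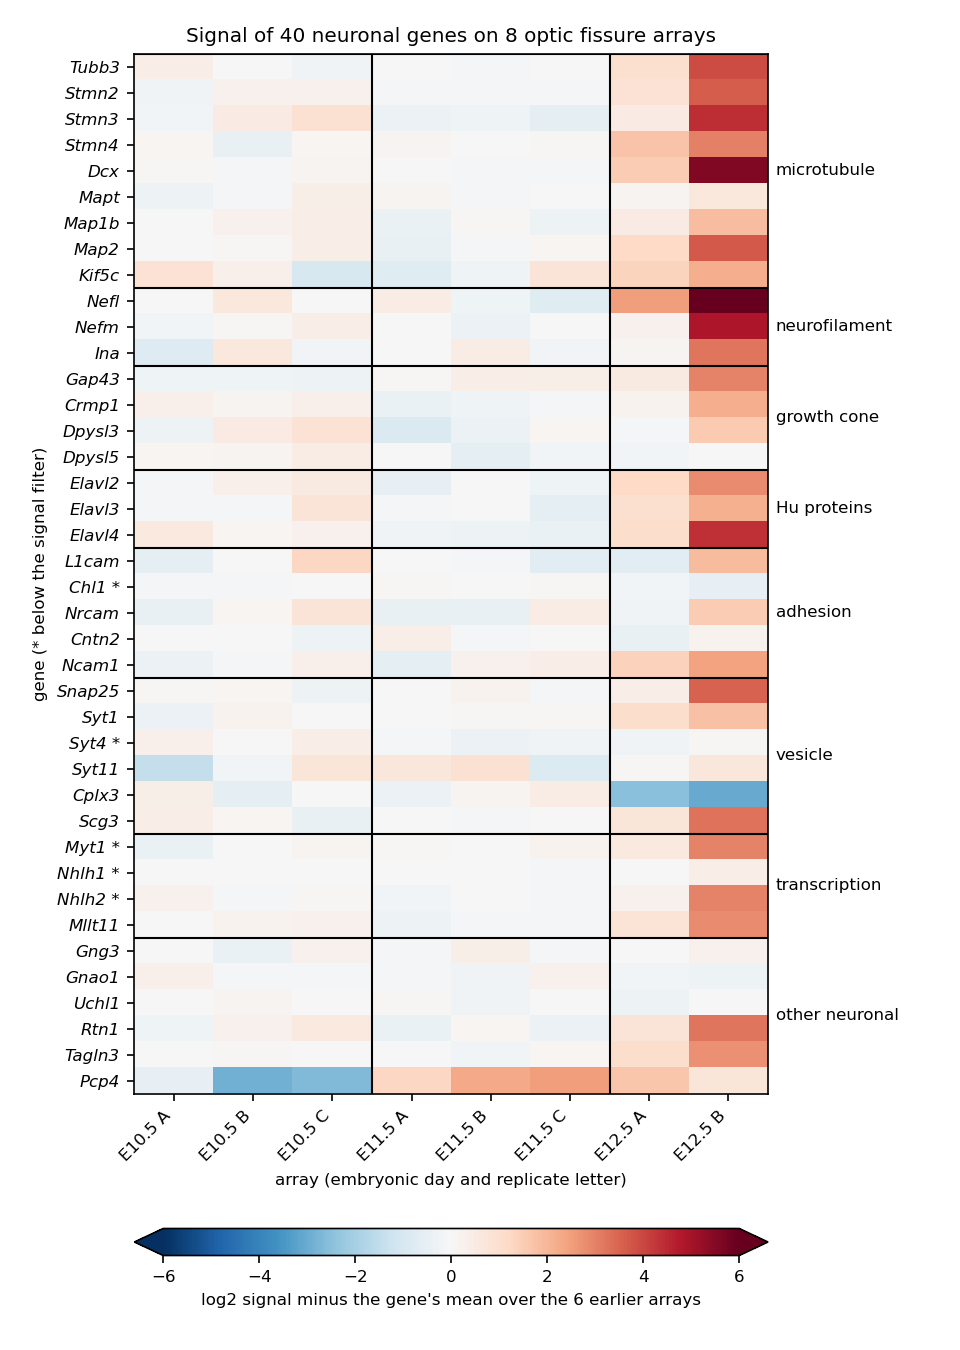
Log2 signal of the 40 genes on each of the 8 arrays (columns), minus the mean of the gene over the 6 arrays of E10.5 and E11.5, with genes (rows) ordered by role and an asterisk at the 5 genes with no tested probe set. On E12.5 B, 27 of the 35 tested genes lie above all 6 earlier arrays, with Nefl at 12.72 against 7.24 on E12.5 A, and Cplx3 is lowest on both E12.5 arrays.

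**Figure D2:**
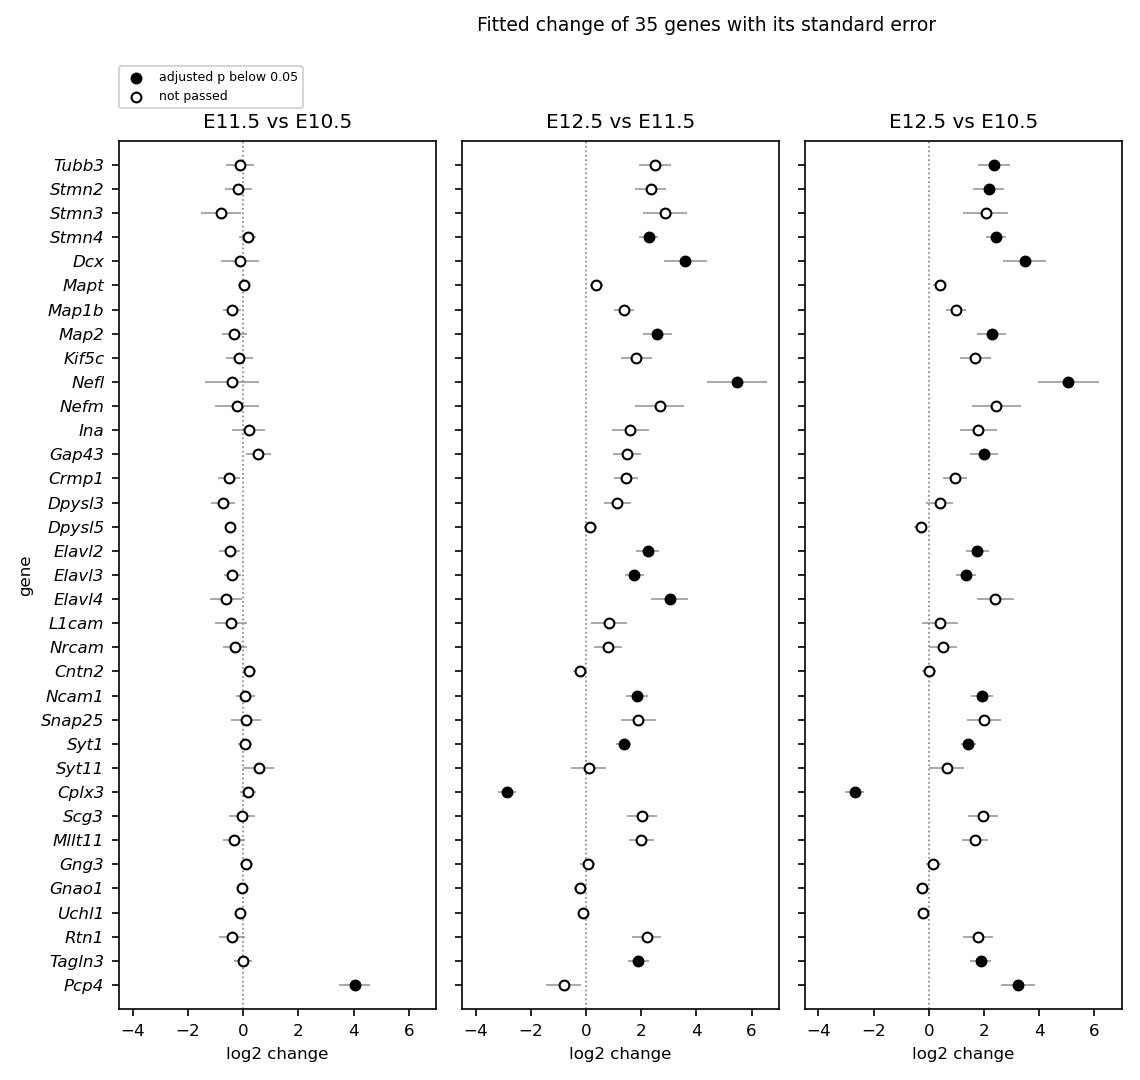
Log2 change with its standard error for each of the 35 tested genes in each of the 3 stage comparisons (panels), genes (rows) in order of role, with filled symbols where the limma test passed. Pcp4 is filled in the first panel, the 10 genes that rose and Cplx3 in the second, and 13 higher genes and Cplx3 in the third.

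The neuronal Hu proteins, RNA-binding proteins that stabilise neuronal transcripts, were the only role of which all tested genes rose between E11.5 and E12.5, 3 of 3. Elavl2 had 6.55, 6.97 and 7.21 at E10.5, 6.16, 6.67 and 6.43 at E11.5, and 7.84 and 9.49 at E12.5. Elavl3 had 3.97, 4.04 and 4.85, then 4.0, 4.11 and 3.56, then 5.05 and 6.22. Elavl4 had 5.02, 4.54 and 4.67, then 4.21, 4.14 and 4.03, then 5.51 and 8.81. In each of the 3 genes both E12.5 arrays lay above all 6 earlier arrays, and E12.5 B lay above E12.5 A. Against E11.5, Elavl2 rose by 2.25 ± 0.42 log2 units (SE, limma adjusted p = 0.0193), a fold of 4.74. Elavl3 rose by 1.75 ± 0.35 (SE, limma adjusted p = 0.0288), and Elavl4 by 3.03 ± 0.66 (SE, limma adjusted p = 0.0425). Against E10.5, Elavl4 had a change of 2.42 with an adjusted p of 0.0602. Its 2 other tested probe sets passed in both comparisons, with 3.40 and 4.52 against E10.5 (limma adjusted p = 0.0191 and 0.00756), but their means over the 6 earlier arrays lay below the filter. Of the 4 of Elavl2, 2 passed and the others had changes of -0.02 and 0.12, and of the 2 of Elavl3 the second had 0.47 and did not pass.

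RefSeq start sites of assembly GRCm38.p6 gave promoter windows for 30 of the 40 genes. The windows of Elavl3 and Elavl4, which rose, and of Cplx3, which fell, are printed below with 250 bases before the start site, 5' to 3' on the gene's own strand. Capitals mark the hexamers CAGCTG and CAGATG, which are E-box letters read by basic helix-loop-helix factors of neurogenesis. CATATG, another E-box, was included, and all 3 hexamers were searched on both strands, where CAGCTG and CATATG read the same. On the minus strand of chromosome 9, Elavl3 has the window chr9:22052024-22052273 and Cplx3 has chr9:57606282-57606531. Elavl4 has 4 annotated starts, and the one shown, chosen because it holds both hexamers, is on the minus strand at chr4:110287528-110287777.
Elavl3: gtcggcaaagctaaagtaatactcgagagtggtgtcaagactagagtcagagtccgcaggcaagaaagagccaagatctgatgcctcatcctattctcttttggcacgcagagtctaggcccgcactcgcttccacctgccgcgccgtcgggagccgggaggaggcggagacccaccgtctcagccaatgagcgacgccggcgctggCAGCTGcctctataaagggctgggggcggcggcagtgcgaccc
Elavl4: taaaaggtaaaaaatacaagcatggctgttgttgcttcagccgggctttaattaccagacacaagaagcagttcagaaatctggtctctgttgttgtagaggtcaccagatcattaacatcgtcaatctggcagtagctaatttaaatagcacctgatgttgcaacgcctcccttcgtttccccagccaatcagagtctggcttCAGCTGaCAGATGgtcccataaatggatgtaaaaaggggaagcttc
Cplx3: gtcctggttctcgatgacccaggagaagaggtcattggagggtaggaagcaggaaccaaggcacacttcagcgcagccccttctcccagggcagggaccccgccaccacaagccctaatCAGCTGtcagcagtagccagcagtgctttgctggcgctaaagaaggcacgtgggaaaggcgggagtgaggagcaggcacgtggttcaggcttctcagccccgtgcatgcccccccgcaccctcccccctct
Counted back from the start, the last base before it being -1, CAGCTG begins at -43 in Elavl3, at -46 in Elavl4 and at -131 in Cplx3, and CAGATG begins at -39 in Elavl4. CAGCTG was in a window of 16.7% of the 30 genes and of 14.7% of 27025 genes with a window, CAGATG in 23.3% and 16.3%, and CATATG in none and 3.98%. Any of the 3 was in 36.7% of the 30 genes and 31.0% of all. Of the 4 Elavl4 windows, 2 that overlap hold CAGCTG and CAGATG, 1 holds CAGATG alone and 1 holds neither, so the match depends on the start. The printed windows of Elavl3 and Elavl4, which rose, and of Cplx3, which fell, all hold CAGCTG, but these 3 genes were picked from the 30. Their shared hexamer is therefore no result about genes that rose or fell. Among the genes that rose, Elavl3, Elavl4 and Syt1 were the ones found with any of the 3 hexamers. The matches describe letters, not binding.

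Of the 9 genes for microtubules, their regulators and a motor, 3 rose between E11.5 and E12.5, with a median change over the 9 of 2.34 log2 units, and 5 were higher at E12.5 than at E10.5. Stmn4, a stathmin that binds tubulin, had 5.80, 5.22 and 5.78 at E10.5, 5.84, 5.72 and 5.74 at E11.5, and 7.38 and 8.69 at E12.5. Its E12.5 arrays were both more than 1 log2 unit above the earlier arrays. It rose by 2.27 ± 0.35 against E11.5 (SE, limma adjusted p = 0.00666), a fold of 4.83, and by 2.44 ± 0.35 against E10.5 (SE, limma adjusted p = 0.00286). Dcx, doublecortin, which bundles microtubules in migrating young neurons, had 3.60, 3.42 and 3.69, then 3.56, 3.38 and 3.45, then 5.04 and 9.06. The E12.5 pair was 4.03 log2 units apart, and the rise against E10.5 was 3.48 ± 0.78 (SE, limma adjusted p = 0.0296). All 6 earlier values lay below the filter, so no fold is given. A second tested Dcx probe set had a change of -0.52 against E11.5 and did not pass. Map2, the dendritic microtubule-associated protein, had 4.71, 4.77 and 5.13, then 4.28, 4.58 and 4.81, then 5.92 and 8.37. It rose against E11.5 by 2.59 ± 0.52 (SE, limma adjusted p = 0.030), a fold of 6.02.

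Tubb3, the neuronal beta-tubulin widely used as a marker of young neurons, had 3.91, 3.50 and 3.34 at E10.5, 3.50, 3.42 and 3.48 at E11.5, and 4.49 and 7.42 at E12.5. It was 2.37 ± 0.58 log2 units higher at E12.5 than at E10.5 (SE, limma adjusted p = 0.0422), from a level below the filter, and missed the threshold against E11.5 at 0.0574. Stmn2, another stathmin, had 4.71 and 7.44 at E12.5 and at most 4.07 before, with an earlier mean below the filter, and likewise passed against E10.5 alone, at 0.0464. Stmn3, also a stathmin, had 6.53 and 10.50 at E12.5. Its values at E10.5 reached 6.96, and its change of 2.86 against E11.5 did not pass (limma adjusted p = 0.11). Kif5c, a kinesin heavy chain that carries cargo along axons, had 10.12, 9.60 and 8.30, then 8.52, 9.03 and 10.04, then 10.60 and 11.46. It had a wide spread at the earlier stages, and its change of 1.83 did not pass (limma adjusted p = 0.135). Map1b and Mapt, microtubule-associated proteins of axons, had changes of 1.39 and 0.37 against E11.5 and did not pass.

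Of the 3 neurofilament subunits, which give axons their calibre, 1 rose between E11.5 and E12.5, with a median change of 2.66 log2 units. Nefl, the light chain, had 4.70, 5.35 and 4.70 at E10.5, 5.16, 4.44 and 3.98 at E11.5, and 7.24 and 12.72 at E12.5. Both E12.5 arrays were above the earlier ones, 5.48 log2 units apart. Nefl rose by 5.46 ± 1.09 against E11.5 (SE, limma adjusted p = 0.0292), a fold of 43.9, the largest change of the 35 genes. A second tested Nefl probe set, with an earlier mean below the filter, passed in neither comparison with E12.5. Its changes were 4.11 against E11.5 and 3.42 against E10.5 (limma adjusted p = 0.0671 and 0.0732). Nefm, the medium chain, had 3.76 and 8.34 at E12.5, the first inside its earlier range of 3.15 to 3.89. Ina, alpha-internexin, which assembles early in axons, had 3.96, 5.36 and 4.56, then 4.73, 5.18 and 4.54, then 4.90 and 7.94. Neither passed, at limma adjusted p of 0.167 and 0.259 against E11.5. A second tested Ina probe set, with an earlier mean below the filter, had 3.37 to 3.91 before and 4.56 and 9.35 at E12.5. Its change of 3.41 against E11.5 did not pass (limma adjusted p = 0.097).

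Of the 4 growth cone and collapsin response genes, none passed between E11.5 and E12.5, with a median change of 1.29 log2 units, and 1 was higher at E12.5 than at E10.5. Gap43, a membrane protein of the growth cone, had 4.79, 4.77 and 4.73 at E10.5, 5.11, 5.41 and 5.38 at E11.5, and 5.55 and 8.0 at E12.5. The groups did not overlap at any step, with E12.5 A next to the highest E11.5 array. It was 4.04-fold higher at E12.5 than at E10.5 (limma adjusted p = 0.0453), and its changes were 0.54 to E11.5 and 1.47 to E12.5, neither of which passed. Dpysl3, a collapsin response mediator, had 8.41, 9.19 and 9.57, then 7.83, 8.34 and 8.80, then 8.63 and 10.28. Its E12.5 A value lay inside the earlier range. Crmp1 and Dpysl5, of the same family, had changes of 1.46 and 0.16 against E11.5 and did not pass.

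Axonal adhesion molecules of the immunoglobulin family numbered 5, of which 4 were tested and 1, Ncam1, rose. Ncam1, which mediates contact between axons, had 8.38, 8.66 and 9.03 at E10.5, 8.21, 8.98 and 9.13 at E11.5, and 10.10 and 11.14 at E12.5. It rose by 1.85 ± 0.39 against E11.5 (SE, limma adjusted p = 0.0396), a fold of 3.59, and 3 of its 4 tested probe sets passed in both comparisons with E12.5, 1 of them with an earlier mean below the filter. The fourth had -0.28 against E11.5. Nrcam had 6.74, 7.33 and 8.01, then 6.78, 6.77 and 7.64, then 6.98 and 8.74, so that E12.5 A lay inside the earlier range and E12.5 B above it. L1cam, on the axons of many neurons, had 6.54 and 9.10 at E12.5, the first below and the second above all 6 earlier arrays. Cntn2, known as TAG-1, had 5.36 and 6.00 at E12.5 and 5.50 to 6.20 before. The 4 Chl1 probe sets were all below the filter, and the one of highest mean had 3.11 to 3.70.

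Among vesicle, exocytosis and secretory granule genes, 1 rose and 1 fell of 5 tested. Cplx3, a complexin that binds the fusion machinery at retinal ribbon synapses, had 7.84, 6.91 and 7.45 at E10.5, 7.16, 7.67 and 7.92 at E11.5, and 4.97 and 4.46 at E12.5. Both E12.5 arrays were below all earlier ones and differed by 0.51. Cplx3 fell by 2.87 log2 units against E11.5 (SE 0.33, limma adjusted p = 0.00103), which is 7.3-fold lower, and was 6.44-fold lower than at E10.5 (limma adjusted p = 0.000983). Syt1, the synaptic calcium sensor, had 6.45, 6.99 and 6.79, then 6.74, 6.85 and 6.85, then 7.82 and 8.53. It rose by 1.37 ± 0.28 against E11.5 (SE, limma adjusted p = 0.0351), a fold of 2.58, and a second tested probe set had -0.08. Snap25, a synaptic SNARE protein, and Scg3, a granule protein, did not pass, and had at E12.5 4.0 and 7.14 (Snap25) and 5.78 and 8.30 (Scg3). Syt11 had 10.22, 11.49 and 12.38, then 12.34, 12.58 and 10.84, then 11.70 and 12.33. Of its 5 tested probe sets that one showed a change of 0.09, while 2 others passed against E11.5, with 1.31 and 0.84. Syt4, a synaptotagmin below the filter, had 3.51 to 4.27.

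The transcription factors Myt1, Nhlh1 and Nhlh2, which act in neuronal differentiation, were all below the filter and have no test. Myt1 had 3.08 to 3.69 on the 6 earlier arrays and 4.09 and 6.44 at E12.5. Nhlh2 had 2.77 to 3.19 before and 3.19 and 5.89 at E12.5. Nhlh1 had 3.25 to 3.39 before and 3.38 and 3.76 at E12.5. The E12.5 B array was the highest of the 8 for each. Mllt11, a cofactor-like protein named from leukaemia translocations, had 8.38, 8.53 and 8.62, then 8.06, 8.24 and 8.23, then 9.18 and 11.19. It came near the threshold against E11.5, with a change of 2.01 ± 0.46 (SE, limma adjusted p = 0.0517).

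Of the last 6 genes, G protein subunits and other proteins enriched in neurons, 1 passed in each of the single steps, Pcp4 upward to E11.5 and Tagln3 upward to E12.5. Pcp4, a small calmodulin-binding protein, had a course of its own, with 6.89, 4.50 and 4.77 at E10.5, 8.66, 9.70 and 9.90 at E11.5, and 9.09 and 8.14 at E12.5. It rose from E10.5 to E11.5 by 4.03 ± 0.56 (SE, limma adjusted p = 0.0278), a fold of 16.4. Its change of -0.81 to E12.5 did not pass, and E12.5 B was 0.95 below E12.5 A. Tagln3, a calponin-like protein of neurons, had 5.07, 5.19 and 5.10, then 5.15, 4.96 and 5.22, then 6.17 and 7.84. It rose by 1.89 ± 0.38 against E11.5 (SE, limma adjusted p = 0.0292), a fold of 3.72. Rtn1, a reticulon, had 5.55 and 8.01 at E12.5 and did not pass at 0.0696. Gng3, a G protein gamma subunit, had 5.69, 5.27 and 5.96, then 5.60, 6.05 and 5.60, then 5.67 and 5.95. With Gnao1, a G protein alpha subunit, and Uchl1, a neuronal ubiquitin hydrolase, it had changes between -0.21 and 0.06 against E11.5, and none of the 3 passed.

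The 2 E12.5 arrays stood apart in most of these genes. E12.5 B was higher than E12.5 A in 32 of the 35 genes, 91.4%, against 36.6% of all genes. It was higher by more than 1 log2 unit in 24, 68.6% against 1.43%, and in none was it lower by more than 1. The median difference was 1.68 log2 units, with a range from -0.95 to 5.48, and -0.08 in all genes. Pairs of arrays within E10.5 and E11.5 had median absolute differences of 0.21 to 0.44 over the 35 genes, with 1 to 7 genes over 1. The 25 genes that did not pass as higher against E11.5, among them Cplx3, had a median difference of 1.76, and the 10 that rose had 1.67. By role the median was 4.58 in neurofilaments, 2.46 in microtubule genes, 1.82 in growth cone genes, 1.65 in Hu proteins, 1.4 in adhesion molecules and 0.71 in vesicle genes. It was 2.02 for Mllt11, the 1 tested cofactor, and 0.26 in the G protein and other genes, of which 2 of 6 were lower on E12.5 B.

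E12.5 A taken alone was above all 3 E11.5 arrays in 22 of the 35 genes, 62.9% against 43.2% of all genes, and above all 6 earlier arrays in 19, 54.3% against 20.1%. E12.5 B was above all 6 in 27, 77.1% against 19.3%. Relative to the E11.5 mean, the median of the 35 genes was 0.71 log2 units for array A and 2.45 for array B. Over the arrays, the median level of the 35 genes was 5.13 to 5.49 at the earlier stages, and 5.68 and 8.30 in the E12.5 pair, A first.

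**Figure D3:**
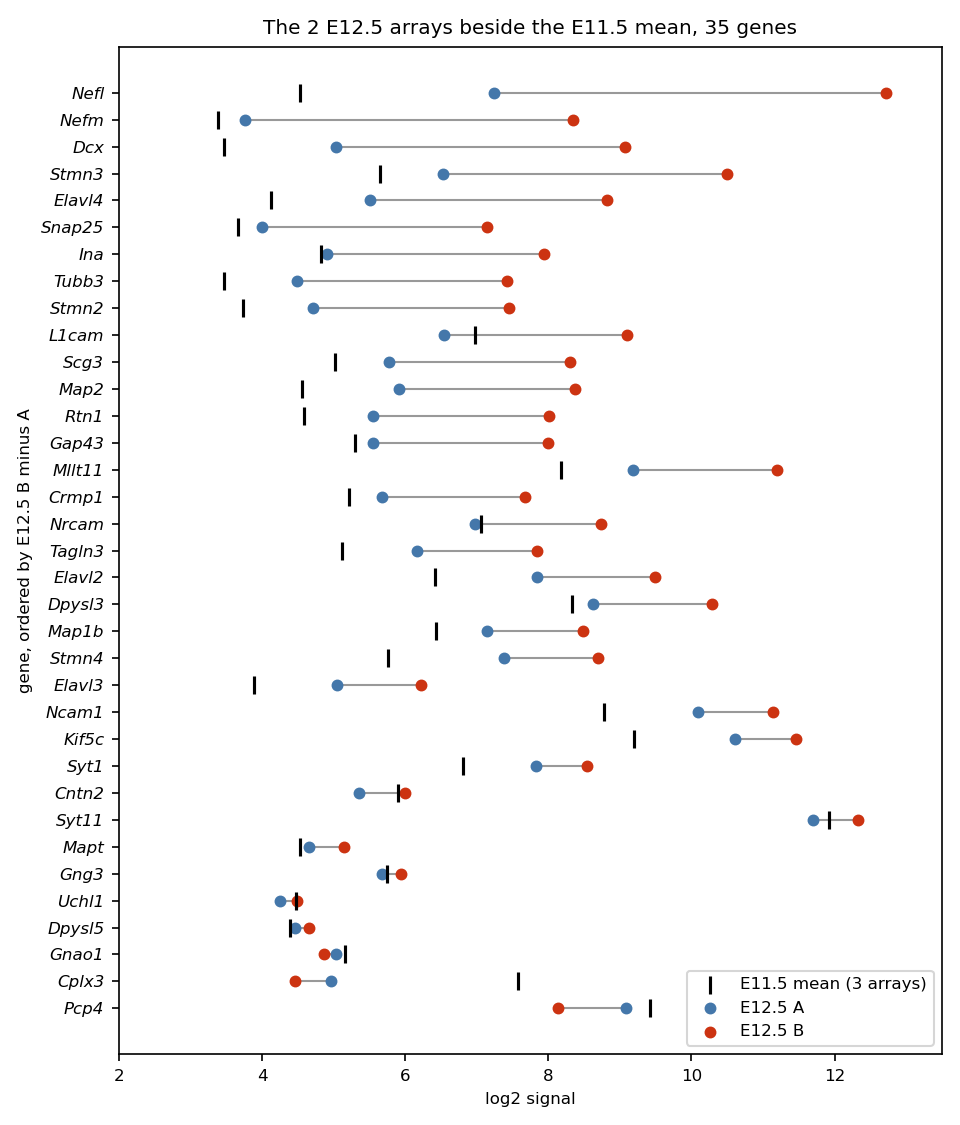
Log2 signal (horizontal) of the 35 tested genes (rows) on E12.5 A and E12.5 B, joined by a line, with a tick at the mean of the 3 E11.5 arrays, ordered by the difference of the pair. The line is longest for Nefl, at 5.48 log2 units, and the order of the pair is turned in Gnao1, Cplx3 and Pcp4.

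**Figure D4:**
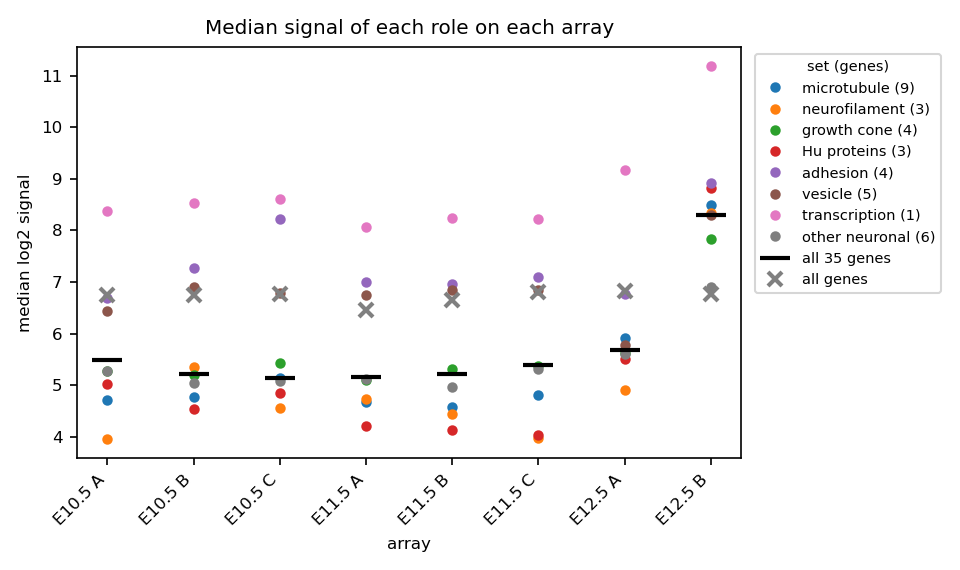
Median log2 signal (vertical) of the tested genes of each role on each of the 8 arrays, with the median of the 35 genes as a bar and that of all genes as a cross. The bar lies between 5.13 and 5.49 on the 6 earlier arrays, at 5.68 on E12.5 A and at 8.30 on its partner, while the cross stays between 6.46 and 6.82.

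A second list held other genes of neuronal structure. Of its 65 genes, 60 were annotated and 49 tested, of which 7 were higher and none lower at E12.5 than at E11.5, with a median change of 0.57 log2 units. The backgrounds were 1.79% higher and 0.238% lower, with a median of 0.11 in all genes. None passed from E10.5 to E11.5 in either direction, with backgrounds of 0.153% and 0.0230%. E12.5 B was higher in 45 of the 49, by more than 1 in 14, with a median of 0.41. In all genes it was higher in 36.6%, by more than 1 in 1.43%, with a median of -0.08. Ank2 and Ank3, ankyrins that anchor membrane proteins to the cytoskeleton, rose by 2.51 ± 0.28 and 1.70 ± 0.33 (SE, limma adjusted p = 0.000773 and 0.0239). Ank2 had 7.49, 7.4 and 7.4 at E11.5 and 9.61 and 10.26 at E12.5, a difference of 0.65 between the pair. Nlgn1, a synaptic adhesion molecule, rose by 2.06 ± 0.30 and Gdap1, a mitochondrial protein, by 2.89 ± 0.58 (SE, limma adjusted p = 0.00497 and 0.0301). The other 3 that passed were Klc1, Dpysl2 and Pak3.

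Markers of cell types were compared beside them. Over all genes, 1.79% were higher and 0.238% lower at E12.5 than at E11.5, and 3.49% and 1.78% than at E10.5. Of 19 measured retinal neuron genes 12 were tested, 5 rose between E11.5 and E12.5, and their summed level, in log2 units, was 10.72 to 10.98 at E11.5 and 12.2 to 13.4 at E12.5. Atoh7, the ganglion cell fate factor, had 3.63 to 3.76 at E11.5 and 11.46 and 12.51 at E12.5. Isl1 and Pou4f1, factors of ganglion cells, differed more between the pair, with 6.31 against 9.27 and 6.88 against 10.12. Pou4f1 had 6.49 to 8.06 at E10.5, so its E12.5 A value lay inside the earlier range. Other genes of the list did not rise. Rbpms had 7.07 to 7.26 at E11.5 and 7.17 and 7.02 at E12.5, and Otx2 had 9.96 to 10.52 and then 9.41 and 9.26. Of the 12 tested, none was lower than at E11.5, and 6 were higher and 1 lower than at E10.5. The median of E12.5 B minus A was 0.97 in the 12 tested. Retinal progenitor genes rose in 9 of 15 tested and differed by a median of 0.03 between the pair. Of 13 peripheral neuron genes measured, which include Isl1 and Pou4f1, 8 were tested and 2 rose, Isl1 and Ntrk2, a neurotrophin receptor with 7.31 to 7.64 at E11.5 and 10.06 and 9.71 at E12.5. The median of E12.5 B minus A in the 8 was -0.01. The remaining 6 of the 8 did not pass, and the median change of the 8 against E11.5 was 0.003 log2 units. The summed level of the list, to which genes of high signal add most, was 8.86 to 9.17 at E11.5 and 10.5 to 11.4 at E12.5. Phox2a, Tlx3 and Hand2 were below the filter on all 8 arrays and Prph had 4.33 to 4.90. Pigment epithelium, periocular mesenchyme and optic fissure genes had medians of -0.52, -0.61 and -0.46 for E12.5 B minus A. Macrophage genes were lower on E12.5 B in 9 of 9, with a median of -0.43. Over all 13050 genes, 8268 were lower on E12.5 B, with a median of -0.08. The summed level of 8 glial and Schwann cell genes was 7.64 to 7.81 at E11.5 and 8.25 and 8.79 at E12.5. Of that list 4 were tested and 1, Fabp7, rose. Mbp had 5.21 to 5.49 at E11.5 and 6.07 and 7.24 at E12.5, while Foxd3 and Olig2 were below the filter on all 8 arrays. Sox10 and Gfap, also tested, were lower on both E12.5 arrays than on all E11.5 arrays. Sox10 had 5.41 to 5.89 and then 5.30 and 5.16, and Gfap 4.07 to 4.27 and then 3.96 and 3.78. Lens and endothelial genes had medians of -0.24 and -0.11 for E12.5 B minus A, and erythroid genes -0.17. The part of cell composition in the results was not tested.

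The counts depended on single arrays, as the plot of counts without each array shows. Without E12.5 B, 2 genes, Dcx and Nefl, were higher against E11.5 and 3, Stmn4, Dcx and Nefl, against E10.5, with medians of 0.71 and 0.56 log2 units. The E12.5 array left was then taken to vary like the other stages. All these fits kept the filter of the full 8 arrays, so a gene could be tested through the array left out. Without E12.5 B this held for Dcx, whose mean over the arrays left lay below the filter. Without E12.5 A, 22 genes were higher in either comparison, with medians of 2.45 and 2.58. Against E11.5, 1 gene was higher without E11.5 A and 1 without E11.5 B, 2 without E10.5 B, 6 without E11.5 C, 7 without E10.5 A and 11 without E10.5 C. Over all 27022 probe sets, 438 were higher against E11.5 with all arrays. In those fits, in the same order, the number was 157, 179, 286, 850, 393 and 737. Against E10.5 the counts without 1 earlier array were 4 to 8, against 13 with all arrays. Over all probe sets the counts of those fits were 535 to 870, against 833 with all arrays. In both fits that kept 1 E12.5 array, fewer probe sets over all were higher than with all arrays, against either earlier stage. The median change of all genes against E11.5 and E10.5 was 0.15 and -0.07 without E12.5 B, and 0.07 and -0.13 without E12.5 A. Cplx3 passed in all 8 such fits in both comparisons, its change against E11.5 lying between -3.12 and -2.61. Stmn4 passed in 7 of 8 against E11.5 and missed without E12.5 B, at an adjusted p of 0.0943 by limma with a change of 1.62. Against E10.5 it passed in all 8. Without E11.5 A and without E11.5 B the gene left was Stmn4, and without E10.5 B the genes left were Stmn4 and Elavl2. Without E11.5 C, Dcx, Nefl, Elavl3 and Elavl4 missed, and without E10.5 A, Dcx, Elavl4 and Ncam1. Elavl2 passed in 5 of the 8 against E11.5, Map2, Nefl, Syt1 and Tagln3 in 4, Dcx, Elavl3 and Ncam1 in 3, and Elavl4 in 2. The highest limma adjusted p among these fits was 0.0976 for Nefl, 0.142 for Map2, 0.155 for Dcx and Elavl4, 0.300 for Elavl2 and Tagln3, 0.442 for Elavl3, 0.666 for Syt1 and 0.687 for Ncam1. Against E10.5, Syt1 and Tagln3 passed in 7, Ncam1, Nefl and Pcp4 in 6, and Tubb3, Stmn2 and Gap43 in 1. The rise of Pcp4 to E11.5 passed in 4 of 8, and missed without E10.5 B, E10.5 C, E11.5 B or E11.5 C, where its change was at least 3.59. None of these values changed direction.

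**Figure D5:**
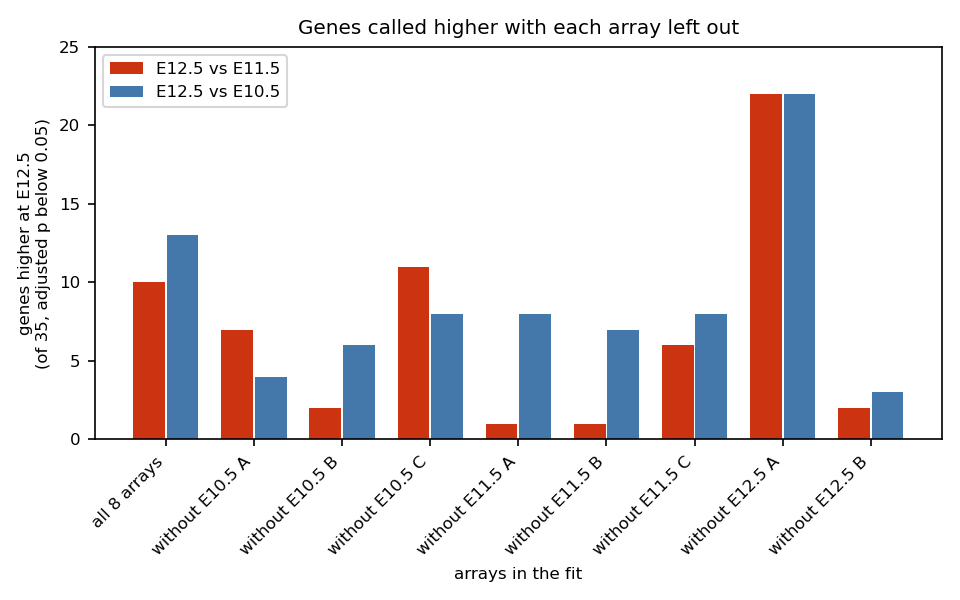
Number of the tested genes higher at E12.5 than at E11.5 and than at E10.5 by the limma test. Bars are given with all arrays and with each of the 8 arrays left out in turn, under the filter of all 8. The counts are 10 and 13 with all arrays, 2 and 3 without E12.5 B and 22 and 22 without E12.5 A.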

How the data were processed

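The values are the authors' deposited log2 signals of 45101 Affymetrix probe sets on 8 arrays, of which 64 are controls. Per the submitters' processing notes GCOS 1.4 was used; how signals were summarised and normalised was not given in the sources used here. Gene symbols come from GEO's platform annotation, which gives 1 symbol for 34945 probe sets, several for 932 and none for 9160, and all 99 probe sets of the 40 genes matched RefSeq identifiers. Probe sets in the lowest 40% by mean log2 signal (below 3.94) were left out, leaving 27022. One model of stage over the 8 arrays, with 5 residual degrees of freedom, was fitted in limma 3.58.1 (R 4.3.3) using a mean-variance trend and Benjamini-Hochberg adjustment over the 27022 probe sets. The model takes the variance of a probe set to be equal at all stages, and was tested on simulated data. A gene is its tested probe set of highest mean. All 40 genes were named, with array values for called genes of each role, genes whose probe sets disagree, and 1 gene per role that did not pass. The genes, lists and tests were chosen with earlier results of these data known. Alternatives were quantile normalization, centring, pseudocounts of 1 and 64, other filters, the mean of probe sets, no trend, array weights, a replicate block and leaving out each array. Those for the difference of the 2 intervals and for the second neuronal list were chosen after seeing the data.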

Additional observations from a re-analysis of the deposited data

How the results depend on the processing

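Of the main counts and medians under the alternatives, 218 values stayed close to the main value and 92 did not. Close meant within 1.5 times the main count, or within 1 SD for a median. The SD, 0.84 log2 units, is that of the median between arrays of a stage and includes the gap of the E12.5 pair. No median whose main value exceeded the SD changed sign, and counts have no direction to change. The median from E10.5 to E11.5, at -0.12, was too small for that check. From E11.5 to E12.5 the genes higher were 10, and 3 under quantile normalization, 5 with a pseudocount of 64, 4 without the trend, 27 with array weights and 4 with the replicate block; the probe sets higher were 17, and 6, 9, 6, 44 and 6 in the same order, and 9 without a filter. Against E10.5 they were 13 genes and 17 probe sets, and 6 and 8 with a pseudocount of 64, 6 and 10 without the trend, 6 and 10 with the replicate block, and 10 probe sets with the lowest 60% left out. From E10.5 to E11.5 the 1 gene and 1 probe set became 0 with a pseudocount of 64, without the trend and with the replicate block, and 3 genes and 4 probe sets with array weights. Array weights also gave 1 gene and 1 probe set lower in that interval, and 2 genes and 5 probe sets lower from E11.5 to E12.5. The fit with array weights gave E11.5 B a weight of 218 against at most 1.20 for the others and stopped before convergence. Over all 27022 probe sets it called 8533 higher from E11.5 to E12.5, against 438 in the main fit. That number was 280 under quantile normalization, 514 with a pseudocount of 64, 333 without the trend and 253 with the replicate block. The difference of the 2 intervals passed in 1 gene, in 2 under quantile normalization, in 0 after centring, with a pseudocount of 64, without a filter, without the trend and with the replicate block, and in 27 with array weights; the second neuronal list had 7 genes, 4 under quantile normalization, 4 without a filter, 29 with array weights and 3 with the replicate block. With each array left out in turn, the ranges were 1 to 22 genes and 2 to 30 probe sets higher against E11.5, 3 to 22 and 6 to 30 against E10.5, 1 to 2 probe sets lower against E10.5, 0 to 1 from E10.5 to E11.5 for genes and probe sets, 0 to 19 for the difference of intervals, 1 to 12 for the second list, and medians of 0.71 to 2.45 and 0.56 to 2.58. Deviations of arrays with the same letter correlated between -0.394 and 0.127. Each deviation is taken from the mean of its own few arrays, which ties the values of a stage together. This check therefore cannot decide whether the letters pair the arrays. The cause of the dependence on single arrays was not tested, although leaving out an array also removes replication. Signals near the filter have little room above background.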
